A study of Mus musculus with 2 samples.

Results

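The interferon-response cells described here were mouse CD8 T cells in which the transcripts of Rtp4, Isg15, Xaf1 and Zbp1, counted as unique molecular identifiers (UMIs, 1 per captured RNA molecule), summed to 3 or more. They numbered 378 of the 5673 cells that had at least 500 detected genes and under 10% mitochondrial UMIs. The control library held 52 of them among 3127 kept cells, and the glucose-restricted library held 326 among 2546. The cells were chosen by the UMIs of these 4 genes, so their levels are given as a description only, and they were left out of every comparison.

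The cells came from spleens and lymph nodes of OT-I mice aged 8 to 12 weeks, a strain whose transgenic T cell receptor recognises the SIINFEKL peptide of ovalbumin. Splenocytes were activated with that peptide in interleukin-2 (100 U/ml) for 48 h, then moved to expansion medium with 11 mM glucose and the same interleukin-2; the sample descriptions instead give 3 days of growth. The control library stayed at 11 mM glucose, and the library under transient glucose restriction (TGR) was held at 1 mM, each for 20 h. With 1 library per condition and no label saying how many mice contributed, no difference between conditions has a replicate check, and condition and library cannot be told apart.

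Type I interferons bind the IFNAR receptor and activate JAK1 and TYK2, which phosphorylate STAT proteins. A complex that holds STAT2 and IRF9 then binds interferon-stimulated response elements (ISREs) in the promoters of antiviral genes, whereas interferon gamma acts through STAT dimers on gamma-activated sequences (GAS). In CD8 T cells interferon raises antiviral effectors and MHC class I, and shapes survival and effector differentiation during priming. Rtp4 encodes a chaperone for G protein-coupled receptors, Isg15 a ubiquitin-like modifier, Xaf1 a protein that binds the apoptosis inhibitor XIAP, and Zbp1 a sensor of Z-form nucleic acid.

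The core letters of an ISRE (GAAA, any 2 bases, then GAAA, searched on both strands) are shown for 5 genes of this programme that hold them, to show what the promoter counts below rest on. Each stretch lies before the gene's start in the RefSeq promoter table (GRCm38.p6, from 250 bases before the start to 50 after it) and is printed 5′ to 3′ on the gene's own strand. Capitals mark the motif; where it reads on the opposite strand it appears as TTTC, 2 bases and TTTC.
Isg15, chr4:156200860-156200899, minus strand: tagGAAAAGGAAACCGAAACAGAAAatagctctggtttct
Ifit1, chr19:34640789-34640828, plus strand: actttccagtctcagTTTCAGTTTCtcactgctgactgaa
Ifit3, chr19:34583392-34583431, plus strand: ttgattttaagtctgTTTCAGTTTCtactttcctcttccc
Ifit1bl1, chr19:34602048-34602087, minus strand: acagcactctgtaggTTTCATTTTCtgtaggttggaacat
Stat2, chr10:128270261-128270300, plus strand: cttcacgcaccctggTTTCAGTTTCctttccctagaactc
In Isg15 the capitals hold 3 overlapping matches, whereas each of the other stretches holds 1. Of the 4 genes of the rule, Isg15 and Xaf1 had a promoter entry, and that of Xaf1 held no match. Irf7, Dtx3l and Rnf213, also described below, had entries with no match before the start.

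Across all 32851 RefSeq promoter windows, 3.44% held the ISRE letters and 8.30% held the GAS letters (TTCNNNGAA). Of 125 genes from 7 lists of interferon targets that had a UMI in the cells compared here, 93 had entries, with 122 windows between them. Of those windows 41.8% held the ISRE letters and 14.8% the GAS letters. A match shows only that these letters stand in the window.

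Interferon-response cells made up 1.66% of kept cells in the control library (52 cells, exact 95% binomial interval 1.24 to 2.18%) and 12.8% in the TGR library (326 cells, 11.5 to 14.2%). All intervals cover counting error only. TGR cells were sequenced to a median of 6265.5 UMIs against 4030 in control cells, and a deeper cell reaches a sum of 3 more easily. When each cell was thinned at random to 3000 UMIs, the share was 0.897% in control (20 of 2229 cells, 0.549 to 1.38%, with 898 cells too shallow to enter) and 3.52% in TGR (86 of 2443 cells, 2.83 to 4.33%, with 103 too shallow). Averaged over all possible draws, the thinned shares were 0.844% and 3.51%. At 2000 UMIs the shares were 0.178% and 1.65%, and at 4000 UMIs 0.630% and 4.37%. The TGR share was thus the higher one at each of these depths, and the ratio between the libraries varied with the depth chosen.

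The same order held in each band of unthinned depth. Under 3949 UMIs, 1.46% of control cells and 11.3% of TGR cells belonged to the interferon-response group. Between 3949 and 6355 UMIs the shares were 1.14% and 9.83%, and above 6355 UMIs they were 2.91% and 15.5%. The summed level of the 4 genes over all kept cells in control was 89.6 CPM (UMIs scaled to a total of 1000000 in the same cells). In TGR it was 141 CPM. The interferon-response cells carried 14.3% and 46.7% of those UMIs.

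**Figure D1:**
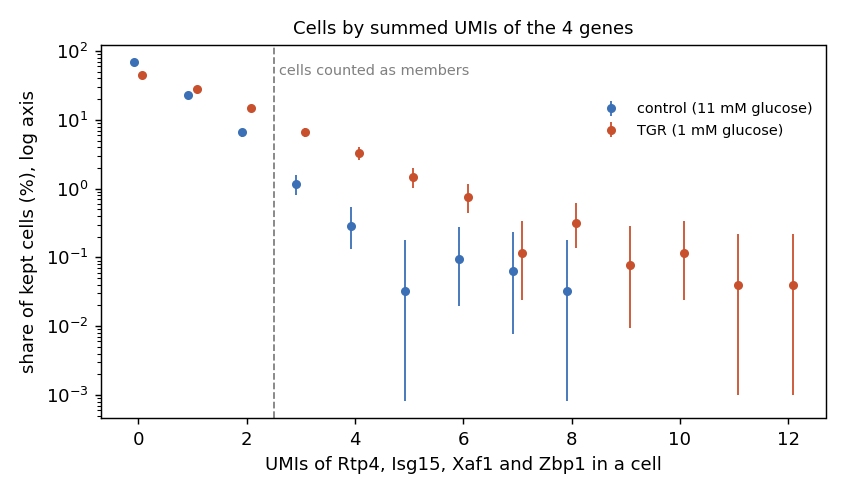
Share of kept cells (log axis) at each summed UMI count of the 4 genes, for control (blue) and TGR (orange); bars are exact 95% binomial intervals and the dashed line is the threshold. Control cells reach a sum of 8 and TGR cells a sum of 12, with no gap at the threshold in either library.

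The sum had no break at the threshold. In TGR 384 cells had a sum of 2, just outside, 168 had a sum of 3, just inside, and 84 had a sum of 4; in control the numbers were 205, 36 and 9. The variance of the sum over kept cells was 1.32 times its mean in control and 1.83 times in TGR. Within the group, Zbp1 was the most often detected of the 4, in 90.4% of control and 79.1% of TGR cells. Rtp4 had a UMI in 40.4% and 57.7% of them, Isg15 in 50% and 49.7%, and Xaf1 in 38.5% and 57.7%. All 4 genes were seen together in 24 TGR cells and in 0 control cells, while 31 TGR and 7 control cells passed on the UMIs of a single gene.

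The cells were CD8 T cells by their markers. All 8 CD8 T cell markers that the gene tables hold were present, with Cd3d at 882 CPM in the control group and 697 in the TGR group, and Cd8b1 at 661 and 461. Neutrophil and erythroid markers were at 0 in both libraries. Macrophage markers gave 0 UMIs in control and 16 in TGR, all from Apoe and Cd68, with Lyz2, Csf1r, Adgre1, Cd14 and the C1q genes at 0. The plasmacytoid dendritic cell list stood at 228 CPM in control interferon-response cells and 195 in their partners, and at 220 and 222 CPM in TGR. In the TGR group these UMIs came mainly from Bst2 (506) and Cox6a2 (172), with Pacsin1 at 40 and the defining Siglech, Klk1 and Cd209d at 0. The conventional dendritic cell list stood at 63.7 and 77.1 CPM in control and 46.3 and 81.4 CPM in TGR, where Batf3 had 79 UMIs, H2-Ab1 59 and Cd74 12, and Flt3, Clec9a, Itgax and Xcr1 were at 0. The B cell list had 7 UMIs against 5 in the partners in control and 35 against 30 in TGR; in the interferon-response cells all but 1 came from Cd79b, with Ms4a1 and Pax5 at 0. The NK cell list had 2 UMIs against 9 in control and 29 against 26 in TGR, of which Eomes gave 2 and 14 in the interferon-response cells, with Ncr1 and Klrb1c at 0. The CD4 T cell list had 13 UMIs against 10 in control and 251 against 273 in TGR, of which Ctla4 gave 12 and 199 in the interferon-response cells, where Cd4 itself had 0 and 8. The part of these markers in the results was not tested.

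Each interferon-response cell was paired with the unused cell of its own library that had a sum of 0 for the 4 genes and the nearest number of UMIs, and summed UMIs were compared as a log2 ratio of CPM. A gene was called when the ratio was at least 1.5-fold and its exact 95% counting interval excluded no difference. Since cells of 1 library are not replicates, a call describes these cells and is no test. The control pairs differed by at most 17 UMIs. In TGR the deepest cells with a sum of 0 ran out, so 94 of the 326 pairs differed by more than 5% (3304859 against 2888268 UMIs in all).

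Of 3071 genes with at least 20 UMIs in the control comparison, 110 were called higher (3.58%) and 88 lower (2.87%). Of 9015 genes in TGR, 230 were called higher (2.55%) and 152 lower (1.69%), and the median log2 ratio over all genes was near 0 in both libraries. Counts of called genes in the lists below are to be read beside these shares. Of the 3069 genes scored in both, 4 were called higher in both (0.13%) and 1 lower in both (0.0326%). With call shares of a few percent in each library, unrelated lists would also share a few genes. Whether this overlap exceeds that was not tested, so a call in both libraries is given as a description. Single-gene calls moved with the choice of partners: with partners taken from the same cell cycle phase, 48 of the 110 control calls and 164 of the 230 TGR calls were made again.

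Interferon targets outside the rule were higher in the interferon-response cells of both libraries. Summed over 7 target lists (138 genes in the files), they stood at 9234 CPM in control interferon-response cells against 6601 in their partners, a log2 ratio of 0.48 (0.40 to 0.57). In TGR the values were 7791 against 5546 CPM, a ratio of 0.49 (0.46 to 0.52). Over the pairs within 5% in UMIs, a restriction chosen after the data were seen, the TGR ratio was 0.68 (0.64 to 0.72). Of the 97 scored target genes in TGR, 42 were called higher and 1 lower, with a median log2 ratio of 0.55. Of the 35 scored in control, 10 were called higher and 1 lower, also with a median of 0.55.

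**Figure D2:**
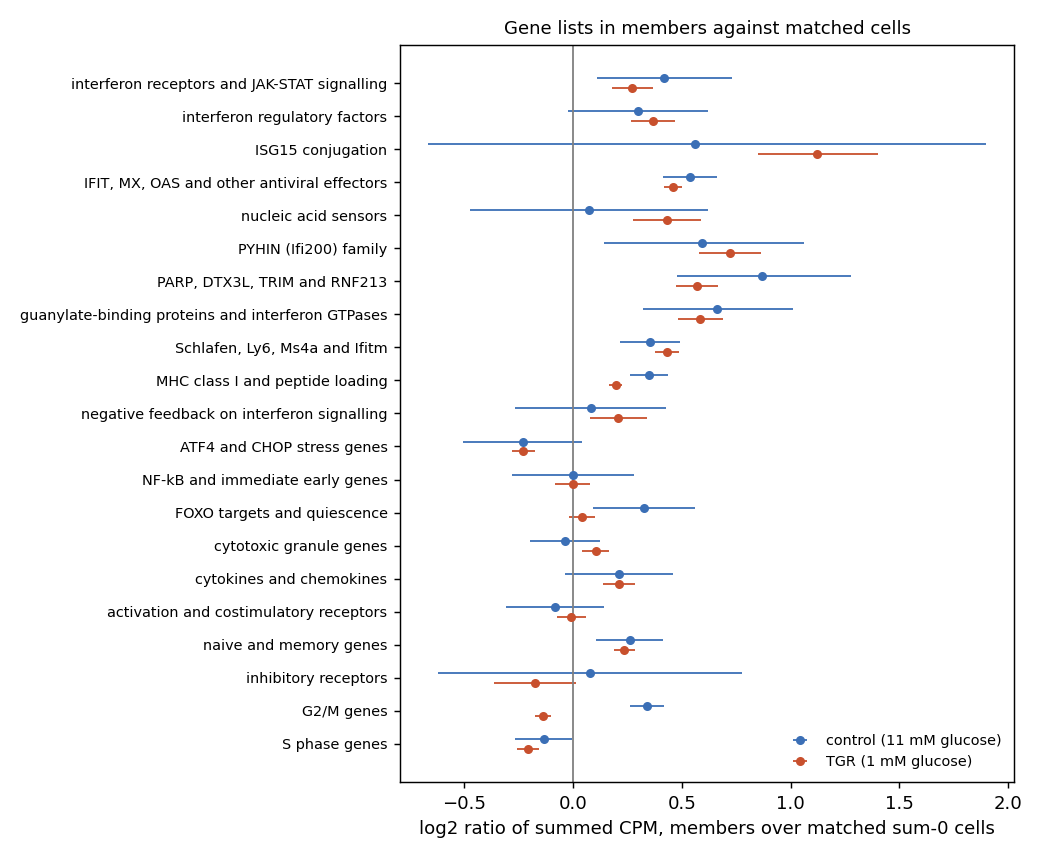
Log2 ratio of summed CPM, interferon-response cells over depth-matched cells with a sum of 0, for each gene list in control (blue) and TGR (orange), with exact 95% counting intervals. The ISG15 conjugation list reaches 1.12 in TGR, the ATF4 and CHOP list lies at -0.23 in both libraries, and G2/M genes fall on opposite sides of 0.

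The difference was spread over most cells of the group. Per 10000 UMIs the 7 lists had a median of 80.2 UMIs in TGR interferon-response cells (range 28.7 to 224) against 55.4 in their partners (19.1 to 142). Of the 326 cells, 91.4% lay above their partners' median and 45.1% above their partners' 90th percentile. In control the medians were 98.5 and 67.1, and 86.5% of the 52 cells lay above the partners' median. The ranges of the paired groups overlapped in both libraries.

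Ligand transcripts were nearly absent. The 11 interferon genes on the list gave 2 UMIs in control interferon-response cells and 0 in their partners, and 5 in each TGR group, all of them Ifng, the gene for interferon gamma.

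Among receptors and signalling genes, Stat2, a subunit of the ISRE-binding complex, had 63 UMIs in TGR interferon-response cells (19.1 CPM) and 21 in their partners (7.27 CPM), a ratio of 2.59-fold (1.58 to 4.52). It was the only 1 of the 11 scored genes of its list to be called in TGR. The receptor chain genes Ifnar1 and Ifngr1 had TGR log2 ratios of 0.15 (-0.16 to 0.47) and 0.17 (-0.07 to 0.41). The whole list was at 0.27 (0.18 to 0.37) in TGR and 0.42 (0.11 to 0.73) in control.

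The interferon regulatory factor genes had 1 call of 12 scored in TGR and 1 of 7 in control, both higher. Over all scored genes 2.55% were called higher in TGR and 3.58% in control, so single calls say little about this list. Irf7, the factor that amplifies type I interferon production, had 111 UMIs against 44 in TGR, at 33.6 and 15.2 CPM (2.19-fold, 1.54 to 3.20), and was seen in 27.9% of interferon-response cells and 11.7% of partners. In control it had 5 UMIs against 1. No cell type that should lack such genes was present, so the partners' share is the only background for these shares. Irf1, an early interferon target, was called in control at 60.4 against 20.1 CPM (log2 1.51, 0.19 to 3.21) and was at 70.8 against 50.5 CPM in TGR (0.48, 0.18 to 0.79).

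The ISG15 conjugation genes had the highest ratio of the 7 target lists in TGR, at 116 against 53.3 CPM (log2 1.12, 0.85 to 1.40), and 3 of 4 scored genes were called. Usp18, the protease that removes ISG15 and damps receptor signalling, had 51 UMIs in 42 TGR interferon-response cells and 4 UMIs in 4 partner cells, a ratio of 10.1-fold (4.10 to 42.5). Trim25, a ubiquitin and ISG15 ligase, had 175 against 68 UMIs (2.24-fold, 1.69 to 3.02), and Uba7, the enzyme that activates ISG15, had 48 against 20 (log2 1.05, 0.29 to 1.90). Herc6, the mouse ISG15 ligase, was at 30.0 against 20.8 CPM (0.52, 0.05 to 1.02), short of 1.5-fold. In control no gene of this list reached 20 UMIs: Usp18 had 3 UMIs against 0, and the list 15 against 10.

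Of the scored IFIT, MX, OAS and other antiviral effector genes, 17 of 31 were called higher in TGR and 2 of 10 in control, with none called lower. Ifit1, which binds foreign RNA cap structures, had 69 UMIs in TGR interferon-response cells and 8 in their partners (7.18-fold, 3.62 to 18.2), in 17.5% and 2.45% of cells. Ifit1bl1 had 47 against 6 UMIs (6.42-fold, 2.92 to 19.6) and Ifit3 had 35 against 6 (4.80-fold, 2.12 to 14.8). These low counts came from a minority of the cells. In control Ifit1 had 2 UMIs against 0, Ifit1bl1 had 6 against 3, and Ifit3 was at 0 in both groups.

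Ifi27l2a, an interferon-induced gene, carried the most UMIs of that list, with 3249 against 1659 in TGR (983 and 574 CPM, 1.71-fold, 1.61 to 1.82). Without it the TGR list ratio was 0.36 (0.31 to 0.41) instead of 0.46. In control Ifi27l2a was at 983 against 671 CPM, a log2 ratio of 0.55 (0.29 to 0.82) just under the 1.5-fold line. The control calls were Plac8, at 1218 against 735 CPM, and Ifi27, at 238 against 90.6 CPM; in TGR these were at log2 0.24 and 0.07. Ifit genes, Ifi27l2a, the Pydc genes and the GBPs have close paralogues, and how reads shared between copies were assigned cannot be read from the tables.

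**Figure D3:**
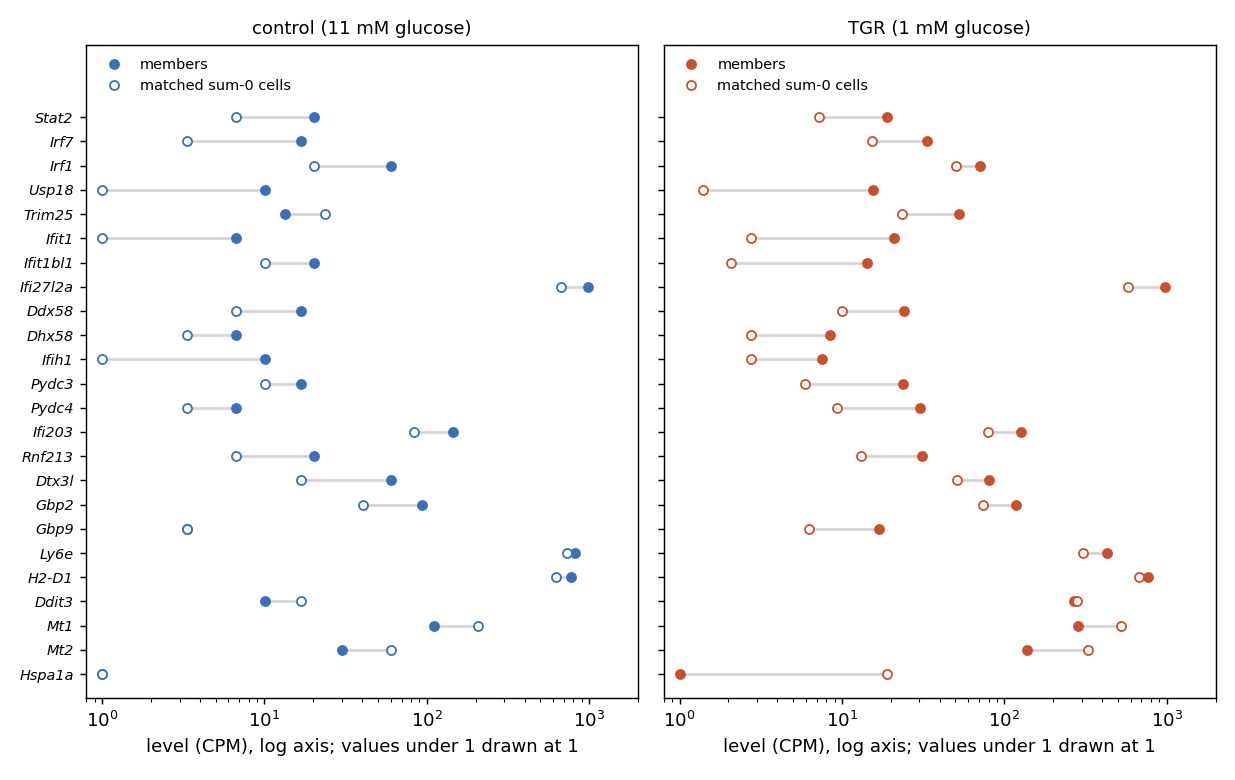
Level (CPM, log axis) of 24 genes in interferon-response cells (filled) and their depth-matched partners with a sum of 0 (open), in control (left) and TGR (right); values under 1 CPM are drawn at 1. In TGR Usp18 lies at 15.4 against 1.38 CPM and Hspa1a at 0.303 against 19.0 CPM.

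Of the scored nucleic acid sensors, 4 of 14 were called higher in TGR, all of them sensors of RNA. Ddx58 (RIG-I) had 80 against 29 UMIs (log2 1.26, 0.64 to 1.94), Dhx58 (LGP2) had 28 against 8 (1.56, 0.44 to 2.96), Ifih1 (MDA5) had 25 against 8 (1.40, 0.26 to 2.81), and Eif2ak2 (PKR) had 110 against 55 (0.80, 0.33 to 1.30). The DNA sensor Mb21d1 (cGAS) was called lower, and its adaptor Tmem173 (STING) was at 0.37 (0.03 to 0.72). In control 1 sensor gene was scored and none was called.

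The PYHIN family, whose members bind DNA in nucleus or cytosol, had 4 of 5 scored genes called in TGR and 1 of 2 in control. Pydc3 had 79 against 17 UMIs in TGR (3.98-fold, 2.38 to 7.32) and Pydc4 had 100 against 27 (3.20-fold, 2.10 to 5.15). Ifi203 was called in both libraries, at 144 against 83.8 CPM in control (log2 0.77, 0.04 to 1.56) and 127 against 79.6 CPM in TGR (0.68, 0.44 to 0.92).

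Dtx3l, a ubiquitin ligase that partners PARP9, was also called in both, at 60.4 against 16.8 CPM in control (1.75, 0.37 to 3.63) and 80.5 against 51.2 CPM in TGR (0.65, 0.36 to 0.95). In the PARP, DTX3L, TRIM and RNF213 list, 6 of 16 scored genes were called in TGR and 2 of 6 in control. Rnf213, a large ubiquitin ligase with antimicrobial activity, had 103 against 38 UMIs in TGR (2.35-fold, 1.62 to 3.53).

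Guanylate-binding proteins and related GTPases, which coat intracellular pathogens, had 6 of 14 scored genes called in TGR and 2 of 6 in control. Gbp2 was called in both, at 93.9 against 40.2 CPM in control (1.19, 0.20 to 2.33) and 117 against 74.4 CPM in TGR (0.66, 0.41 to 0.90). Gbp9 had 56 against 18 UMIs in TGR (log2 1.42, 0.66 to 2.30) and 1 against 1 in control. Igtp was called in TGR (0.76, 0.51 to 1.02), whereas in control it had 37 UMIs in each group.

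The fourth gene called higher in both libraries was Tnfaip8l1, which is on none of the lists. Its TGR counts were 49 against 26 UMIs (0.71, 0.01 to 1.47), and over the pairs within 5% in UMIs the ratio was 0.10. With partners from the same cell cycle phase, none of these 4 genes was called in both libraries; the control ratio of Dtx3l was then 0.35 and that of Ifi203 was 0.61.

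The list of Schlafen, Ly6, Ms4a and Ifitm genes, interferon targets of lymphocytes, stood at log2 0.43 (0.38 to 0.49) in TGR and 0.35 (0.21 to 0.49) in control. The CD8 T cell markers were at 0.18 (0.14 to 0.23) and 0.30 (0.17 to 0.43), so in control the list was close to the lineage markers. Ly6e was at 429 against 305 CPM in TGR (0.49, 0.37 to 0.61). Ms4a4b was called in control, at 714 against 459 CPM (0.63, 0.32 to 0.96), and was at 0.30 (0.19 to 0.42) in TGR. Ifitm2, an antiviral membrane protein gene, was called lower in control, at 40.2 against 90.6 CPM (-1.14, -2.29 to -0.14). It had 12 UMIs in 8 interferon-response cells and 27 UMIs in 10 partner cells there, so this call rests on few cells.

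MHC class I and peptide loading genes differed less. In TGR they stood at 5744 against 5013 CPM (log2 0.20, 0.17 to 0.23), with 0 of 21 scored genes called in either direction. In control the list was at 7775 against 6101 CPM (0.35, 0.26 to 0.44), with 4 of 18 called higher: Psmb10, Psme2, H2-Q6 and H2-T23. Both list ratios were close to those of the CD8 T cell markers, at 0.18 in TGR and 0.30 in control. B2m, the shared light chain, was at 1972 against 1425 CPM in control and 1438 against 1297 CPM in TGR. Feedback genes were at 0.21 (0.08 to 0.34) in TGR, where Usp18, also counted above, was the only 1 of 9 called; Socs1 was at 0.31 (0.00 to 0.62).

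Genes called higher in TGR interferon-response cells held the ISRE letters in 10.1% of their 257 promoter windows, against 2% of 150 windows of genes called lower and the 3.44% of all windows. For GAS the shares were 9.34% and 10%, against 8.30% of all windows. Within the target lists the split was narrower, with the ISRE letters in 46.3% of windows of genes called higher and 39.5% of windows of those that were not. Of the 26 windows with the ISRE letters among all genes called higher, 19 belonged to target list genes, which had 41 of the 257 windows. The higher ISRE share thus rests mostly on known targets and says little about the other called genes.

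The summed level of the 7 target lists was higher at each higher marker sum, from cells with no UMI of the 4 genes to cells with 5 or more. In TGR the 7 lists stood at 5780 CPM in cells with a sum of 0, at 6429 with 1 and at 6915 with 2. At the sums inside the threshold they stood at 7285 with 3, 7843 with 4 and 8864 with 5 or more. In control the levels were 7101, 7742 and 8340 CPM outside the threshold and 8638, 9689 and 11780 inside it, the last from 7 cells. In both libraries the step from a sum of 2 to a sum of 3 was smaller than the steps just before and just after it. The threshold thus marked no jump in these levels.

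**Figure D4:**
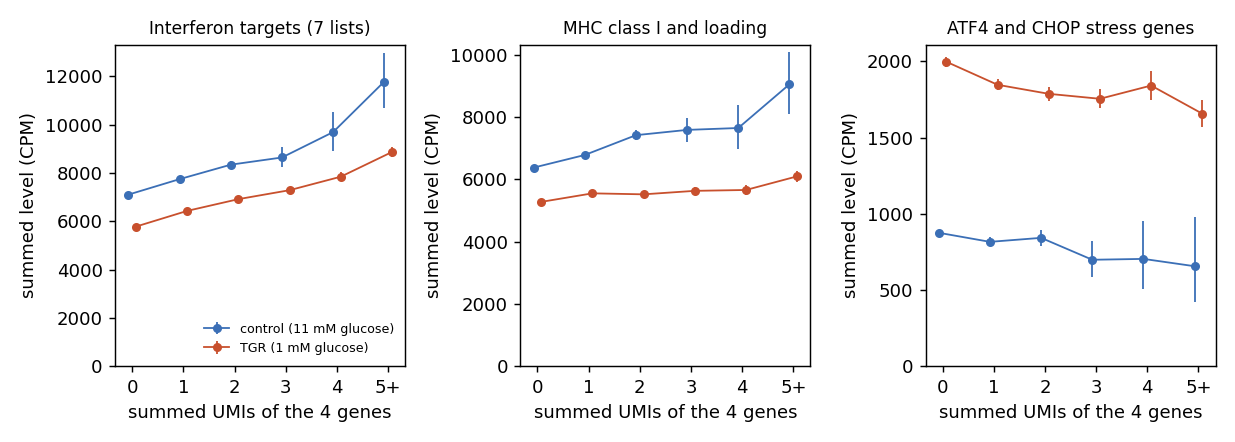
Summed level (CPM) of 3 gene groups in cells by the summed UMIs of the 4 genes, in control (blue) and TGR (orange), with 95% Poisson counting intervals. Cells are not matched on depth. Interferon targets climb from 7101 to 11780 CPM in control and from 5780 to 8864 CPM in TGR.

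Mt1, which encodes a small zinc-binding metallothionein, was the single gene called lower in both libraries, at 111 against 208 CPM in control (log2 -0.90, -1.57 to -0.28) and 284 against 521 CPM in TGR (-0.87, -0.99 to -0.76). In TGR it had a UMI in 53.4% of interferon-response cells and 59.5% of partners, and single cells held up to 49 and 87 UMIs. Its neighbour Mt2 was called lower in TGR, at 138 against 326 CPM (-1.24, -1.41 to -1.08). In control it had 9 UMIs against 18 and was not called (-0.96, -2.34 to 0.23).

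The ATF4 and CHOP stress genes, which cells use when amino acids or glucose run short, were lower by 0.23 on the log2 scale in TGR (-0.28 to -0.18). None of 19 scored genes was called higher and 4 were called lower, beside 2.55% and 1.69% of all scored TGR genes. The genes called lower were Chac1, Sesn2, Nupr1 and Angptl6. All 19 had a fold under 1. Ddit3, which encodes CHOP, was at 268 against 279 CPM (-0.06, -0.20 to 0.08) and Atf4 at 280 against 304 CPM (-0.12, -0.26 to 0.01). In control the list was also at -0.23 (-0.51 to 0.04), where of 8 scored genes Ddit4 was called higher and Mthfd2 lower.

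T cell state genes differed little. Naive and memory genes were at 0.24 (0.19 to 0.29) in TGR and 0.26 (0.11 to 0.42) in control, with 0 of 17 and 2 of 13 called higher. Over all scored genes the shares called higher were 2.55% and 3.58%. Tcf7, which sustains memory potential, was at 226 against 189 CPM in TGR and 241 against 161 in control, and the survival gene Bcl2 at 528 against 433 and 597 against 533. The CD8 T cell markers themselves were at 0.18 (0.14 to 0.23) and 0.30 (0.17 to 0.43), so the naive and memory ratio was close to that of the lineage markers.

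Cytotoxic granule genes were at 0.10 (0.04 to 0.16) in TGR and -0.04 (-0.20 to 0.12) in control. Gzmb, the main granzyme of effector cells, was at 419 against 438 CPM in TGR and 530 against 795 CPM in control (-0.58, -0.88 to -0.29). Gzma had 3 UMIs in 3 control interferon-response cells and 26 UMIs in 2 partner cells, so its lower call there rests on 2 cells; it had 7 against 4 UMIs in TGR. The chemokine gene Ccl5 was at 161 against 70.4 CPM in control but was detected in 8 of the 52 interferon-response cells and 11 of the 52 partners, so a few cells carried its higher call. In TGR it was at 169 against 131 CPM, in 43.9% and 35.9% of cells. Tnfrsf4 (OX40), a costimulatory receptor, was called lower in TGR, at 40.8 against 68.2 CPM (-0.74, -1.07 to -0.42), and had 10 UMIs against 22 in control.

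Cell cycle phase was called from relative scores after thinning each cell to 1500 UMIs. In TGR 53.4% of interferon-response cells were called G1 (47.8 to 58.9%) against 41.4% of their partners (36.0 to 47.0%) and 47.1% of all kept cells. Without thinning these were 45.4% and 33.7%. In control 5.77% of the interferon-response cells and 7.69% of partners were called G1, from 3 and 4 cells. Such calls rank cells within these libraries and do not by themselves show which cells divide.

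Seen from the other side, TGR cells thinned to 3000 UMIs belonged to the interferon-response group in 5.25% of G1 cells (4.02 to 6.72%), 2.07% of S cells (1.25 to 3.22%) and 0.993% of G2/M cells (0.271 to 2.52%). Unthinned, the shares were 14.5%, 11.2% and 11.4%, with G1 cells the shallowest at a median of 5374 UMIs and G2/M cells the deepest at 7917. Averaged over all draws the thinned shares were 5.64%, 1.90% and 1.19%. In control the single draw gave 1.90% in G1, 0.765% in S and 0.910% in G2/M, from 2, 7 and 11 cells, with intervals that overlap. The control averages over all draws were 1.93%, 0.702% and 0.857%.

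**Figure D5:**
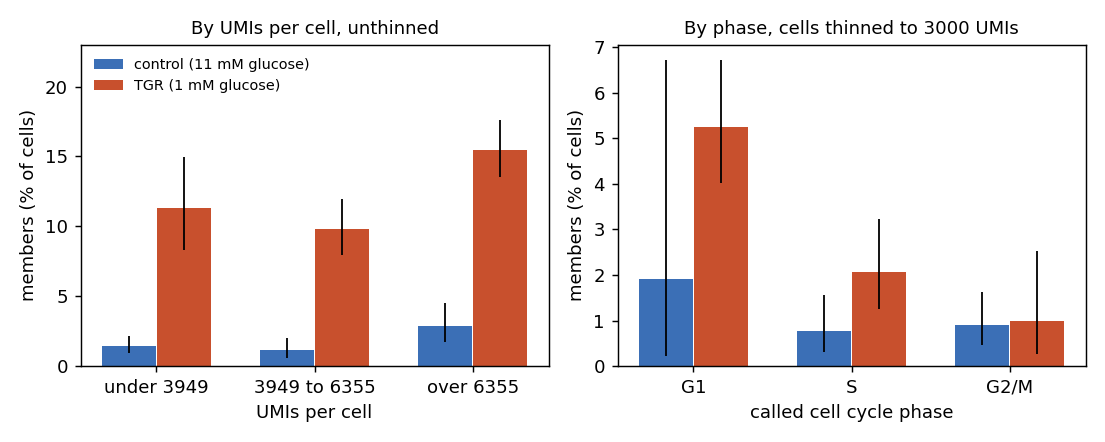
Interferon-response cells as a percent of kept cells, by UMIs per cell without thinning (left) and by called phase after thinning to 3000 UMIs (right), in control (blue) and TGR (orange); bars start at 0 and error bars are exact 95% binomial intervals. TGR stands above control in all 3 depth bands, and its share is 5.25% in G1 and 0.993% in G2/M.

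The interferon-response cells carried a share of the target transcripts not far above their share of all RNA. They held 2.52% of the UMIs of the 7 lists in control and 20.1% in TGR, with 2.03% and 16.8% of all UMIs. For ISG15 conjugation genes the TGR share was 26.3% (24.1 to 28.7%). Over all kept cells that list was higher in TGR than in control by 0.44 on the log2 scale (0.31 to 0.56). Leaving out the interferon-response cells of both libraries gave 0.26 (0.13 to 0.40), and cells with a sum of 0 gave 0.08 (-0.11 to 0.28). The rule takes cells by related genes and takes a larger share of TGR cells, so a fall follows from the choice itself. In the same order, the PARP, DTX3L, TRIM and RNF213 list gave 0.61 (0.57 to 0.66), 0.54 (0.49 to 0.59) and 0.44 (0.37 to 0.50). The totals behind these ratios include ribosomal protein transcripts. Their median share in cells with a sum of 0 was 40.0% in control and 49.6% in TGR. Ratios of these 2 lists on totals without them are not given. The value of 0.08 therefore does not show that ISG15 conjugation genes were alike in such cells of both libraries.

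Between the libraries, the 7 lists together were lower in TGR than in control inside and outside the group, at -0.25 (-0.30 to -0.19) in interferon-response cells and -0.25 (-0.32 to -0.18) in their partners. All cells with a sum of 0 gave -0.30 (-0.31 to -0.28). When the totals excluded mitochondrial and ribosomal protein transcripts, both ratios turned to the other side of 0, at 0.05 and 0.01. The median share of ribosomal protein UMIs per cell was 40.0% in control and 49.8% in TGR. Within the group, ISG15 conjugation genes were higher in TGR by 1.20 (0.47 to 2.06), resting on 15 control UMIs. The ATF4 and CHOP list was higher in TGR by 1.34 (1.14 to 1.54) in interferon-response cells and by 1.33 (1.15 to 1.52) in their partners.

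Of all barcode sequences, 11 occurred in both libraries, and 4 TGR interferon-response cells shared theirs with a kept control cell. Every control barcode had at least 520 genes, so the mitochondrial limit alone removed 209 of them. Of these, 0 had a sum of 3 or more, which allows a share of up to 1.44% (3 counts of the total; exact 95% upper limit 1.75%). They had a median of 1545 UMIs, against 4030 in kept control cells. Kept control cells thinned to 2000 UMIs reached that sum in 0.178% of cases, so the 0 says little about the removed barcodes.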

How the data were processed

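Both 10x Chromium (v2) single-cell libraries, 1 per condition, were analysed. Reads were processed with Cell Ranger 2.2 and Seurat 3 on mm10, per the submitters' processing notes; the deposited matrices hold raw UMI counts per gene and cell barcode. Totals were 15103830 UMIs in 3336 control barcodes and 19702050 in 2548 TGR barcodes. The cells and gene lists were chosen with earlier results of these data known.

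Kept barcodes had at least 500 genes and under 10% mt- UMIs; no doublet caller was run. Cells with a sum of 3 or more for the 4 genes were paired 1 to 1, deepest first, with cells of sum 0. Ratios added 0.5 UMI; genes needed 20 UMIs in both groups together. CPM in comparisons used all UMIs outside the 4 genes. Ratios have exact binomial (Clopper-Pearson) 95% intervals. The procedure was tested on simulated data with counting error only, which cannot show false calls from UMIs clumped in few cells. Scores came from scanpy 1.11.5 and alternative scaling from edgeR 4.0.16 and DESeq2 1.42.0; no model was fitted.

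Named genes were those called in both libraries (up to 15 higher and 10 lower), 2 by ratio and 2 by UMIs from each list, and 11 fixed genes; others were added after their values were seen, as were the pairs within 5% and the mean over draws. Ifit3, Uba7, Ifi27, Mt2 and Hspa1a are among those. Some genes are not reported here.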

Additional observations from a re-analysis of the deposited data

Results flagged for a closer look

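The G2/M list, 54 genes that peak before and during mitosis, was higher in the control interferon-response cells than in their depth-matched partners and lower in the TGR ones. In control the log2 ratio was 0.34 (0.26 to 0.42), with 5 of 37 scored genes called higher and 1 lower, beside 3.58% and 2.87% of all scored control genes. In TGR it was -0.14 (-0.17 to -0.10), with 0 of 53 called. The intervals cover counting error only and the difference between the libraries was not tested. With partners from the same called phase the ratios were 0.26 (0.18 to 0.34) and -0.02 (-0.06 to 0.01). Over the TGR pairs within 5% in UMIs the ratio was -0.30 (-0.36 to -0.25). Cenpf, a kinetochore gene, was at 386 against 191 CPM in control and 59.6 against 51.9 CPM in TGR. Hmgb2 was at 1831 against 1385 CPM in control and 540 against 700 CPM in TGR.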

How the results depend on the processing

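No paired analysis was possible because each condition has 1 library. The summed level of the 7 target lists stayed above that of the partners under every setting run, in both libraries. This does not hold for each list alone. In control the ISG15 conjugation list was at 50.3 CPM in interferon-response cells and 50.4 CPM in all cells with a sum of 0. A sum of at least 2 gave shares of 8.22% (control) and 27.9% (TGR), list ratios of 0.33 and 0.40, 150 control genes lower, 7 higher and 4 lower in both, and 11.7% and 38.8% of target UMIs. A sum of at least 5 gave 0.224% and 2.91%, ratios of 0.76 and 0.72, 20 control genes higher and 2 lower, 151 TGR genes higher, 0 in both in either direction, 0.395% and 5.39% of target UMIs, 0% of control cells in G1, and TGR over control ratios of -0.41 and -0.37 (partners). Unmatched cells of sum 0 gave ratios of 0.38 and 0.43, 189 control genes higher, 9 higher and 2 lower in both. Partners of the same phase gave 2 higher and 2 lower in both and a partner TGR over control ratio of -0.33. Pairs within 5% gave a TGR ratio of 0.68, 10 higher and 4 lower in both. At least 2 detected genes gave 3 lower in both. Totals without ribosomal protein and mitochondrial genes turned the TGR over control ratio to 0.054 (partners 0.0099); these totals, edgeR factors, no count filter and under 5% mt- each gave 2 lower in both, and no filter gave 142 lower in control. At least 50 UMIs gave 56 higher and 42 lower in control and 1 higher in both. At 2-fold 62 and 51 (control) and 94 and 46 (TGR) were called higher and lower, and 0 in both in either direction. Thinning to 2000 UMIs gave shares of 0.178% and 1.65%, and to 4000 UMIs 4.37% in TGR; unthinned calls gave 45.4% of TGR cells in G1. The causes were not tested. With 52 control cells, 3071 genes could be scored there against 9015 in TGR.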

Other observations

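Some genes were chosen after their values were seen. Hspa1a, the inducible heat shock gene, had 1 UMI in 1 of 326 TGR interferon-response cells (0.307%, 0.0078 to 1.70%) and 55 UMIs in 10 of their 326 partners (3.07%, 1.48 to 5.57%), and 54 of 2546 kept TGR cells (2.12%) held it. In control 1 of 3127 kept cells had a UMI. Hsph1, a heat shock cochaperone, had 32 UMIs against 60 in TGR (log2 -1.09, -1.77 to -0.46). Hspa1a has a near-identical neighbour copy, so its counts are uncertain.

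The MHC class II gene H2-Ab1 had 59 UMIs in TGR interferon-response cells and 116 in their partners (-1.16, -1.65 to -0.71), while Cd74 had 12 and 13 UMIs and H2-Aa 2 and 1. Tc2n had 50 UMIs in 7 TGR interferon-response cells and 12 in 4 of their partners, so its call rests on few cells. Over the pairs within 5% in UMIs it had 0 UMIs against 5 in TGR; in control it had 5 UMIs against 0. Plscr3, a scramblase family gene, had 57 against 18 in TGR (1.45, 0.68 to 2.32) and 5 against 2 in control.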
